A study of Mus musculus with 15 samples.

Results

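The T cell receptor variable segments are the V genes from which the alpha, beta, gamma and delta chains of the receptor are assembled. Members were selected on their summed counts, as the genes of the deposited count table that the GENCODE M21 annotation types as TR_V_gene and that held at least 10 counts summed over the 15 libraries. This gave 92 of 144 annotated segments, out of 55536 annotated genes in the table: 63 Trav (alpha), 19 Trbv (beta), 6 Trgv (gamma) and 4 Trdv (delta) segments. Of the 52 segments below the minimum, 6 had no count. Just inside the minimum were Trav12d-2, Trav4-3, Trav13-2 and Trav17 with 10 counts each, and just outside it were Trav7-2, Trav9n-3, Trav9d-3, Trav3-1 and Trav7d-2 with 9 counts each. The summed count chose the members, so the presence of counts is not a result.

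A T cell receptor chain begins with a V segment that has been joined to a J segment, with a D segment between them in beta and delta chains, and the joined unit is spliced to a constant region. Most T cells carry alpha and beta chains, while a smaller lineage carries gamma and delta chains. OT-I is a transgenic receptor against the SIINFEKL peptide of ovalbumin, presented on the mouse class I molecule, and it is built from a Trav14 alpha chain (Valpha2) and a Trbv12 beta chain (Vbeta5).

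RNA was sequenced from CD8+ T cells of OT-1 Tg C57BL/6J mice in 3 groups of 5 libraries each. Naive cells were purified from OT-I mice and were not transferred. For the other groups, OT-I cells were transferred into WT C57BL/6J recipients, which then received SIINFEKL peptide with control rat IgG (Ag) or SIINFEKL with the agonist antibodies anti-CD134 (clone OX-86) and anti-CD137 (clone 3H3) (Ag+Costim). Spleen and lymph nodes were taken 4 days later by the sample descriptions, and 3 days and some hours later by the study's methods. All groups carry the OT-I transgene. By the methods, OT-I mice were deficient in Rag1 or Rag2 (Rag1-/- or Rag2-/-) and carried CD45.1, CD45.2 or both alleles, and mice of both sexes were used, with ages given only as a range for the whole study. Which Rag genotype, sex or age each library had was not used here. By the methods, cells taken after stimulation were sorted as CD8+ CD45.1+ Valpha2+ Vbeta5+. In Ag and Ag+Costim the gate itself thus selected cells bearing the OT-I segments, and a high share of Trav14 and Trbv12 is what it asked for. The methods describe this sort only for stimulated cells, so whether it was used for Naive is not known. Recipients had a complete set of T and B cells of their own.

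Estimated counts summed to between 4865952 (Ag 3) and 25280667 (Naive 3) per library, and the 92 segments held between 0.0996% and 0.279% of them. Ag 3 stood apart in depth, and Ag 1, Ag 3 and Ag 4 stood apart in B cell markers (values are given beside the results they move with). The CD8 T markers Cd8a, Cd8b1, Cd3e, Trac, Trbc1 and Trbc2 were present in every library, with a summed level of 5674 to 11672 CPM (the count relative to the TMM-scaled library total, per 1000000). Lane 2 held every Ag library with Ag+Costim 1 to 3, and lane 3 held Ag+Costim 4 and 5 with the Naive libraries, so lane and group cannot be told apart between Ag and Naive. In bulk RNA, fewer cells of a type and less RNA per cell cannot be told apart.

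The beta chain segments are shown first, because Trbv12-1 and its neighbour Trbv12-2 are distinct enough for 50-base reads to separate and yet differed in behaviour. Trbv12-1 (coding V exon at chr6:41113775-41114067, mm10, plus strand) and Trbv12-2 (chr6:41119072-41119364, plus strand) each have 293 bases in that exon and differ at 32 of them. The sequences are read 5′ to 3′ from the reference, and capitals mark the bases that differ between the pair.
Trbv12-1: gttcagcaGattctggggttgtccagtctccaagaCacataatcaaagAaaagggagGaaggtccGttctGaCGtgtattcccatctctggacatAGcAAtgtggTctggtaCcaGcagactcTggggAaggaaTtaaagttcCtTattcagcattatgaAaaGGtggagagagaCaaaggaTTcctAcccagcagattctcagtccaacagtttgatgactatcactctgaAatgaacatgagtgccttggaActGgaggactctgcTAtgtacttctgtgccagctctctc
Trbv12-2: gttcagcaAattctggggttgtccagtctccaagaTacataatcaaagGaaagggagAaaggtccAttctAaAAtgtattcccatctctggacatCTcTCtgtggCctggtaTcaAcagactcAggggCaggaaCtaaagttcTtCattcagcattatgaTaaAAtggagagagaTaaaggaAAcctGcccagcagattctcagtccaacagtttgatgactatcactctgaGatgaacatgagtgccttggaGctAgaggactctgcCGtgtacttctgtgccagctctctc
Of all 50-base windows of the spliced Trbv12-1 transcript, 100% occur in no other annotated gene, and for Trbv12-2 the share was 98.8%.

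The alpha chain locus on chromosome 14 carries 9 Trav14 copies, and here reads often cannot be assigned to 1 copy. The 4 copies below show this in the last 270 bases of their coding V exon, on the plus strand of mm10, with capitals at bases that differ from Trav14d-1. Trav14d-1 lies at chr14:52855897-52856166, Trav14n-1 at chr14:53166909-53167178, Trav14-1 at chr14:53554289-53554558 and Trav14-2 at chr14:53640956-53641225.
Trav14d-1: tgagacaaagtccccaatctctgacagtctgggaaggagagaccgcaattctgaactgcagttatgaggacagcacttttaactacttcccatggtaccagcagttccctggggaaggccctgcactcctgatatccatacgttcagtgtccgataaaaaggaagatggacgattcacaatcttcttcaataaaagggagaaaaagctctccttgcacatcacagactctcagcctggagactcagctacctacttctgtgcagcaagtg
Trav14n-1: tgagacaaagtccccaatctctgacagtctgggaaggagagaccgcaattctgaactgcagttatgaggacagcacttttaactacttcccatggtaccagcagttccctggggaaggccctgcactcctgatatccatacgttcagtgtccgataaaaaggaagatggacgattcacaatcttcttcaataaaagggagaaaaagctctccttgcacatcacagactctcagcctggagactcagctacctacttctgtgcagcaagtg
Trav14-1: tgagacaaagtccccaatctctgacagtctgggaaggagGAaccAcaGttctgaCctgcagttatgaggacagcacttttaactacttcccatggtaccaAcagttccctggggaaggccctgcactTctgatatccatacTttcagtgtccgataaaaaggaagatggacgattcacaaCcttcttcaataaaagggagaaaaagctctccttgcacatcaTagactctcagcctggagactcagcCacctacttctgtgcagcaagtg
Trav14-2: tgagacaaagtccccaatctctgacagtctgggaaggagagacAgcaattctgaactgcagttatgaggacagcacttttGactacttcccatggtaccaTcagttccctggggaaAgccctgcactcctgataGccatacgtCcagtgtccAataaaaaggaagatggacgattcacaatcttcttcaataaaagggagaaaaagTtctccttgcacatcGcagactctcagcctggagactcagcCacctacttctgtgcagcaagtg
Trav14d-1 and Trav14n-1 are identical in this stretch, with 0% of 50-base windows unique to either, and their counts should be read as a single quantity split between both. Trav14-1 differs from Trav14d-1 at 11 bases and Trav14-2 at 10 bases. Across the 92 members, 22 had no unique window, 20 had unique windows throughout, and the median was 54.4%.

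The beta chain was nearly all Trbv12-1. It had a mean level of 3414 CPM per kilobase of exon over the 15 libraries, against 30.3 for Trbv12-2 and 1.69 for Trbv13-2, the next in order. Its levels were 1081 to 1647 CPM in Naive, 921 to 2187 in Ag and 956 to 1290 in Ag+Costim, with overlap among all 3 groups. Per kilobase, the level of Trbv12-1 relative to the constant genes Trbc1 and Trbc2 was 0.569 in Naive (median; 0.556 to 0.653), 0.582 in Ag (0.561 to 0.596) and 0.587 in Ag+Costim (0.573 to 0.609). The ratio stayed within a narrow band whatever the treatment.

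Trbv12-2 varied widely within Ag. Its counts in Ag were 1077 in Ag 1, 97 in Ag 2, 39 in Ag 3, 489 in Ag 4 and 36 in Ag 5. The Ag+Costim counts were 67, 50, 66, 58 and 54, and the Naive counts 6, 65, 15, 6 and 38. Ag 1 and Ag 4 stood far above all others, Naive 2 lay within the range of the Ag+Costim counts, and Naive 5 lay below it. As a share of Trbv12 counts, Trbv12-2 made up 4.78% in Ag 1 (95% Wilson interval 4.51 to 5.06) and 1.58% in Ag 4 (1.44 to 1.72). The remaining Ag libraries held 0.156% to 0.914%. The 5 Ag+Costim libraries held 0.358% to 0.416%, with overlapping intervals. Naive 1, 3 and 4 held 0.0267% to 0.034%, while Naive 2 held 0.389% (0.305 to 0.496) and Naive 5 held 0.233% (0.17 to 0.32). Intervals here and below cover counting error only. Naive 2 was thus as high as Ag+Costim, Naive 5 was between, and the intervals of the other Naive libraries ended below both.

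**Figure D1:**
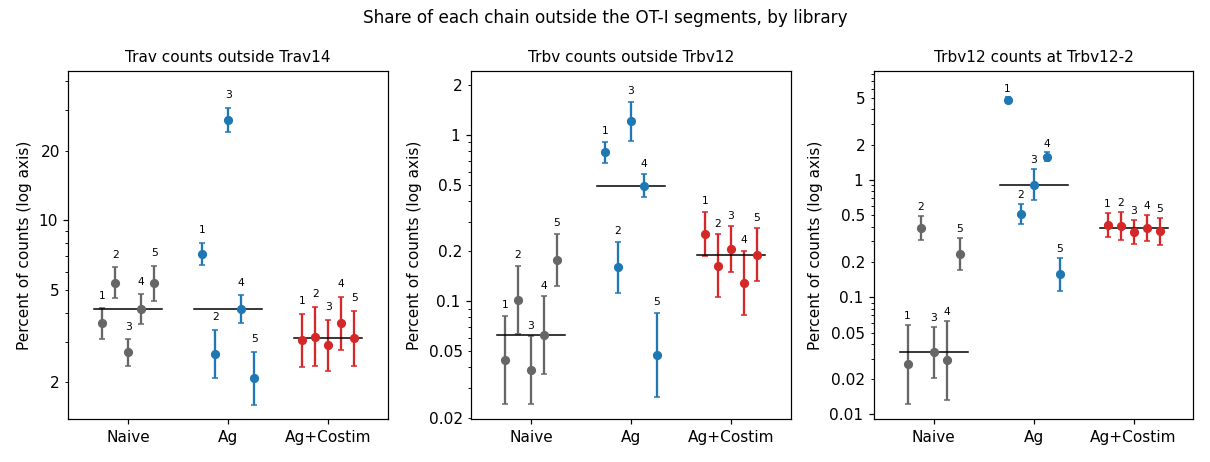
Percent of counts on a log axis for each library, numbered by replicate, with 95% Wilson intervals and a line at the group median. Left, Trav counts outside Trav14. Middle, Trbv counts outside Trbv12. Right, Trbv12 counts at Trbv12-2. Ag 3 sits at 27.2% on the left and Ag 1 at 4.78% on the right, while the 5 Ag+Costim libraries lie close together in all 3 panels.

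Outside Trbv12, 17 beta segments were members. Their counts together were 179 of 22719 Trbv counts in Ag 1 (0.788%, interval 0.681 to 0.911), 30 in Ag 2 (0.16%), 52 of 4321 in Ag 3 (1.2%, 0.919 to 1.57), 154 in Ag 4 (0.494%, 0.422 to 0.578) and 11 in Ag 5 (0.0477%, 0.0267 to 0.0855). Ag+Costim libraries held 0.128% to 0.254% and Naive libraries 0.0385% to 0.178%. The share was therefore highest in Ag 3, Ag 1 and Ag 4, and Ag 5 was as low as Naive. With the V pseudogenes counted as well, the mean was 0.192% ± 0.108 in Naive and 0.229% ± 0.0432 in Ag+Costim, a difference smaller than the SD in Naive, and 0.687% ± 0.625 in Ag. Trbv3 was counted in Ag 1 to 4 (17, 14, 9 and 16 counts) and in Ag+Costim 1 and 3 (5 and 4), and in no Naive library. Trbv13-2 had 22 counts in Ag 1, 9 in Ag 3, 23 in Ag 4 and 0 in Ag 2 and 5, with 5 to 9 in every Ag+Costim library and 6 and 9 in Naive 3 and 5. Trbv13-3 had 8 to 13 counts in Ag 1 to 4 and 0 in Ag 5, and was otherwise counted only in Ag+Costim 3 and Naive 2, at 4 counts each. Trbv31, the segment at the far end of the locus and on the opposite strand, was the most even, with counts in 14 libraries and 0 to 20 counts in each. Of the 17 segments, 8 had no count in any Naive library, Trbv3 among them. All counts that made these 8 members came from Ag or Ag+Costim, so their absence from Naive is tied to the membership rule. A count of 0 allows up to 3 counts in that library, so at these depths a segment at the level of Trbv13-3 could be missed.

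B cell markers and the percent of reads headed RiP in the sequencing core's table (a term not spelled out there) moved with these shares in Ag. RiP was 15.4% in Ag 3, 43.8% in Ag 1 and 55.0% in Ag 4, against 72.3% in Ag 2 and 78.3% in Ag 5. It was 69.3% to 74.3% in Ag+Costim and 44.4% to 62.7% in Naive. Of the 8 B cell markers, the level summed without Ighm (a sum chosen after its values were seen, since Ighm was counted at 475 CPM or more in every library) was 173 CPM in Ag 1, 462 in Ag 3 and 232 in Ag 4, and 25.6 to 49.2 CPM in the other 12 libraries. With Ighm, the list summed to 583 to 975 CPM in Naive, 602 to 1397 in Ag and 503 to 746 in Ag+Costim, and no marker was at 0 in all libraries. Of 7 B markers tested, 5 were higher in Ag than in Naive, including Cd79a (log2 fold change 4.78 ± 0.96 SE, edgeR FDR 0.0149). Other lists did not follow the same libraries throughout. The CD4 T markers summed to 163 CPM in Ag 4, 129 in Ag 1 and 61.9 to 71.4 in the other Ag libraries. Within Ag, the NK markers were lowest where Trbv12-2 was highest, at 49.0 CPM in Ag 1 and 53.3 in Ag 4, against 371 to 470 in the other Ag libraries. Naive went the other way: Naive 2 and 5, highest in Trbv12-2, had 252 and 273 CPM, against 56.5 to 128 in the other Naive libraries. The 6 NK markers did not move together, so their sum is not a measure of NK cells. In Ag+Costim vs Naive, Ncr1 fell (-3.67 ± 0.96 SE, edgeR FDR 0.0125), as did Klrb1c (-4.19 ± 0.92, FDR 0.00661). Klra8, Tyrobp, Gzma and Eomes were not called there, at -3.28, -0.82, 1.17 and 1.04. The myeloid markers summed to 145 CPM in Ag 3 and 63.7 to 86.1 in the other Ag libraries. They were at 96.2 in Naive 2, 198 in Naive 5, 13.1 to 36.1 in the other Naive libraries and 84.0 to 158 in Ag+Costim. The part of B cells, of recipient cells of any type or of RiP in the segment counts was not tested.

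The alpha chain was mostly Trav14 in every library, Ag 3 least so. The share of Trav counts outside Trav14 was 4.23% ± 1.16 (SD, n = 5) in Naive, 3.16% ± 0.265 in Ag+Costim and 8.65% ± 10.6 in Ag. Without Ag 3 the Ag mean was 4.01%. In Ag 3, 203 of 746 Trav counts lay outside Trav14 (27.2%, interval 24.1 to 30.5), and the Trav6 family alone held 11.5% of the chain with 86 counts. Trav6-5, whose copies share most windows, had 22 counts in Ag 3 and 12 in Ag 1, against 10 or fewer elsewhere. Ag 1 followed at 7.16% (6.41 to 7.99), a value above both Ag 2 (2.66%) and Ag 5 (2.09%). Naive 2 (5.38%) and Naive 5 (5.35%) lay above Naive 3 (2.69%) by more than their intervals.

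Within Trav14, the identical pair Trav14d-1 and Trav14n-1 made up 73.0% ± 0.656 (SD, n = 5) of the family in Naive, 73.1% ± 0.342 in Ag+Costim and 69.1% ± 5.28 in Ag. The lowest value was 60.5% in Ag 1. Per kilobase, each of the pair averaged 163 to 164 CPM over the 15 libraries, against 28.2 for Trav14-3, 27.7 for Trav14d-2, 27.3 for Trav14n-2 and 18.2 for Trav14d-3-dv8. Trav14-2, a copy named here after its values were seen, made up 4.5% of the family in Ag 1, 1.73% in Ag 4 and 1.66% in Ag 3, and at most 1.01% in every other library. Trav14-2 and Trbv12-2 were thus both highest in Ag 1 and second highest in Ag 4 on the CPM scale, at 14.8 and 5.73 CPM for Trav14-2 and 92.7 and 35.0 CPM for Trbv12-2. No correlation was computed.

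The number of segments with any count did not follow a library's estimated counts. In Ag it was highest in the libraries with the lowest RiP given above. Trbv members with counts numbered 19 of 19 in Ag 1, 17 in Ag 4 and 13 in Ag 3, and 4 to 6 in Ag 5 and Ag 2, 6 to 12 in Ag+Costim and 4 to 8 in Naive. Trav members with counts numbered 52 to 56 of 63 in Ag 1, 3 and 4, 22 to 23 in Ag 2 and 5, 21 to 31 in Ag+Costim and 37 to 52 in Naive. Ag 3 had the fewest counts of any library and 71 members detected, while Ag 5, with 18004241 counts, had 32. Only Naive 3 had more estimated counts than Ag 5. Segments that became members through their Ag counts are among those detected, so the high numbers in Ag are partly set by the membership rule.

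**Figure D2:**
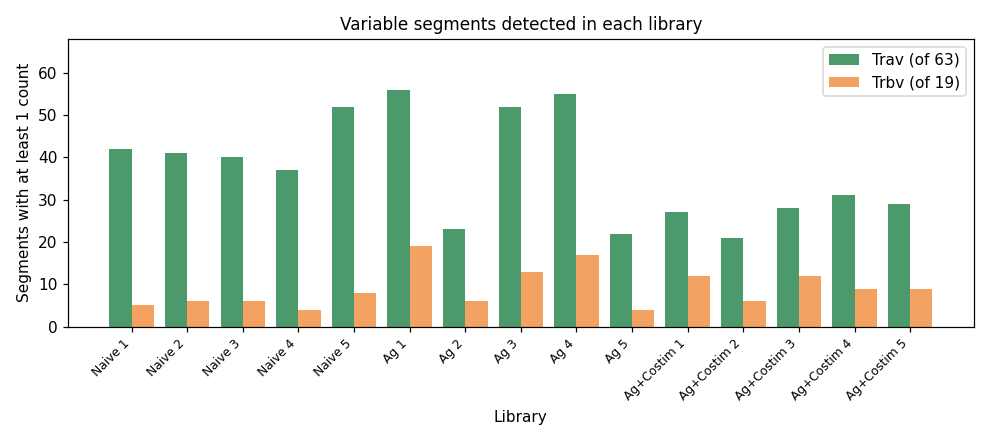
Bars give the number of Trav (of 63) and Trbv (of 19) segments with at least 1 count in each library, ordered as Naive, Ag and Ag+Costim. Ag 1, 3 and 4 reach 52 to 56 Trav and 13 to 19 Trbv segments, and Ag 2 and 5 reach 22 to 23 and 4 to 6.

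Most gamma and delta chain segments were at low counts, and several were highest in Naive. Tcrg-V4 was counted 22, 25, 29, 43 and 6 times in Naive 1 to 5 and had 0 counts in all 10 transferred libraries. All 125 counts that made it a member were in Naive, so its direction is tied to the membership rule. With counts pooled by group and a limit of 3 counts over each other group, its CPM in Naive was 32.1-fold that limit in Ag. Against the limit in Ag+Costim it was 39.1-fold. These folds allow for counting error only and not for the spread between libraries, which was 0.399 to 2.99 CPM in Naive. It did not pass the filter on low counts and was not tested. Tcrg-V6 had 11, 9, 8 and 16 counts in Naive 1 to 4 and 0 in Naive 5, 4 counts in Ag 1, 2 counts in Ag+Costim 1 and 0 in the other 8 libraries. Tcrg-V3, in contrast, had 5 to 7 counts in each Naive library but 10 in Ag 3. Trgv2 and Tcrg-V5 were counted in 11 and 12 libraries with 9 or fewer counts in each.

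Tcrg-V1 was the one gamma segment tested. Its levels were 2.37, 1.58, 2.54, 3.54 and 1.53 CPM in Naive 1 to 5, 0.138 to 1.31 CPM in Ag and 0.389 to 0.731 CPM in Ag+Costim, so Naive did not overlap with either other group. Of its 50-base windows 75.4% are unique, and the rest are shared with Tcrg-V3 and Trgv2.

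The Trdv2 segments of the delta chain followed the same order. Trdv2-2 was at 42.1, 34.9, 26.4, 43.8 and 15 CPM in Naive 1 to 5, at 12.4 to 21.9 CPM in Ag and at 6.42 to 15.4 CPM in Ag+Costim. Naive 5 alone lay within the range of the other groups. Trdv2-1 gave 1.53 to 5.0 CPM in Naive, 1.45 to 2.65 in Ag and 0.904 to 1.95 in Ag+Costim. The windows of both are shared in part with each other and with the predicted gene Gm43647. Trdv2-2 took 84.4% to 88.0% of Trdv counts in Naive, 77.3% to 86.6% in Ag and 68.8% to 80.7% in Ag+Costim. Trdv4 took 1.26% to 5.34% of Trdv counts in Naive, 0% to 12.2% in Ag and 6.83% to 11.1% in Ag+Costim, while Trdv2 fell. Its own level did not pass the test (0.46 ± 0.68 in Ag+Costim vs Naive, edgeR FDR 0.586) and was 0 in Ag 3 and 0.376 to 3.44 CPM elsewhere. Trdv5 overlaps the constant gene Trdc in sequence (59.4% of its windows are unique) and had at most 15 counts in any library.

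Trav15-1-dv6-1, a segment that can join to alpha or to delta chains, was also highest in Naive. Its counts were 34, 20, 33, 28 and 7 in Naive, 11, 0, 0, 4 and 2 in Ag and 0, 3, 1, 0 and 0 in Ag+Costim. All Ag+Costim values lay below all Naive values, and Ag 1 overlapped with Naive. Other members named for both chains did not all follow. Summed counts in Naive, Ag and Ag+Costim were 40, 5 and 1 for Trav15d-1-dv6d-1 and 16, 2 and 1 for Trav15d-2-dv6d-2. They were 21, 12 and 7 for Trav13-4-dv7 and 15, 12 and 10 for Trav6-7-dv9. For Trav16d-dv11 they were 4, 8 and 2, for Trav21-dv12 0, 19 and 0, and for Trav14d-3-dv8 880, 646 and 330.

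The summed gamma-delta T markers, of which Trdc made up most, moved with these segments. The 6 markers summed to 149 to 396 CPM in Naive, 99.9 to 169 in Ag and 83.5 to 119 in Ag+Costim, and the Naive minimum was again Naive 5. The delta constant gene Trdc and the gamma constant gene Tcrg-C1, both among these markers, were lower in the transferred groups. Tcrg-C1 was at 4.79 to 15.8 CPM in Naive, 0.344 to 1.64 in Ag and 0 to 0.417 in Ag+Costim (log2 fold change relative to Naive -3.57 ± 0.53, FDR 0.00614, and -5.58 ± 0.60, FDR 0.000489). Trdc was at 141 to 338 CPM in Naive, 84.7 to 126 in Ag and 78.3 to 114 in Ag+Costim (-1.39 ± 0.21, FDR 0.00614, and -1.44 ± 0.21, FDR 0.00142). Of the 6 markers, 2 fell in Ag and 4 fell in Ag+Costim relative to Naive, and in Ag vs Naive Blk and Maf were at 0.78 and 0.90, neither past the threshold (FDR 0.572 and 0.397). Of the other gamma constant genes, Tcrg-C2 fell in Ag+Costim (-3.06 ± 0.61, FDR 0.00438) and was not called in Ag (-1.21 ± 0.56, FDR 0.172). Tcrg-C4 was called in neither (-0.42 ± 0.24, FDR 0.155, in Ag+Costim and -0.81 ± 0.24, FDR 0.0545, in Ag). The part of gamma-delta T cells in the segment counts was not tested.

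**Figure D3:**
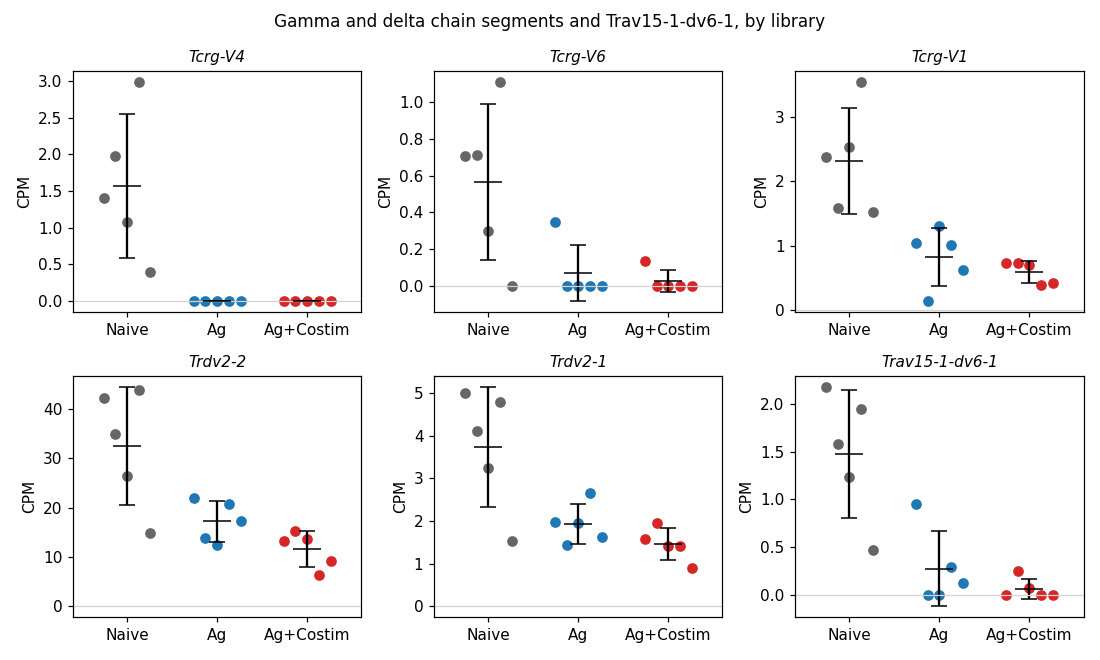
CPM of 6 segments in each library of the 3 groups, with the group mean and SD in black. Tcrg-V4 is at 0 in all 10 transferred libraries, and for Tcrg-V1 the Naive points lie above all others.

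The 3 comparisons were then tested across all genes by edgeR. The filter on low counts kept 17366 genes and 17 of the 92 members: 11 Trav, 2 Trbv, 3 Trdv and 1 Trgv. The other 75 members were not tested, the most abundant of them with 125 counts in total. The counts of calls below cover the 17 only. A member that passed because 1 group was high was bound to differ more, and limiting the counts to the 17 does not remove this. Tcrg-V1 was high mainly in Naive (mean 2.31 CPM, against 0.821 in Ag and 0.594 in Ag+Costim). So was Trav15-1-dv6-1 (1.48, against 0.272 and 0.0628). Trav14-1 was high in Naive and Ag (means 4.15 and 2.94 CPM) and low in Ag+Costim (0.538). The falls of these segments below are therefore not independent of the filter. Over all genes tested, the median log2 difference was 0.08 in Ag vs Naive, -0.08 in Ag+Costim vs Naive and -0.10 in Ag+Costim vs Ag.

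The comparison of Ag vs Naive sets transferred cells given antigen and control IgG against cells that were not transferred, so antigen, transfer and lane cannot be told apart. Here 1 of 17 members rose, against 3.05% of all genes, and 0 fell, against 3.66%. At an unadjusted p under 0.05 there were 6 of 17 members, against 28.7% of all genes. DESeq2, fitted to all 92 members, called 1 higher and 3 lower, against 2.26% and 3.09% of its 48994 genes. Those 48994 are all genes with at least 1 count, including any that its own filter left without an FDR. Only 34737 reach the 10 counts that every member has, so these shares are not a like background. The 92 also include members that reached 10 counts through 1 group, such as Tcrg-V4 in Naive, whose direction is tied to the membership rule. The member called by edgeR was Trbv12-2 (log2 fold change 4.05 ± 0.97 SE, FDR 0.0264). Its Ag and Naive values overlapped, since Ag 5 at 2.25 CPM lay below Naive 2 at 5.13 CPM. The call was lost without Naive 1, 3 or 4 (FDR 0.0787, 0.0783 and 0.0811), and the size fell to 2.89 without Ag 1 (FDR 0.0438). Among members whose groups did not overlap, 1 was lower (Tcrg-V1, -1.53 ± 0.48, FDR 0.0661; 2.09% of all genes) and 0 were higher (1.76%). Trdv2-2 was at -0.91 ± 0.30 (FDR 0.0738) and Trav15-1-dv6-1 at -2.35 ± 0.95 (FDR 0.128), neither past the threshold. Trbv12-1 was at 0.15 ± 0.20 (FDR 0.614). With the lane as a term edgeR called 0 of all 17366 genes, and Trbv12-2 was at 3.82 ± 1.60 (FDR 0.626).

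In Ag+Costim vs Ag, which asks what the agonist antibodies added, edgeR called 0 of 17 members, against 0.0288% of all genes higher and 0.00576% lower. At an unadjusted p under 0.05 there were 11 of 17 members, against 26.8% of all genes. DESeq2 called 14 of 92 members, all lower, against 9.73% of its genes lower, with the limit on that share given above. Some of the 92 reached 10 counts through Ag, such as Trbv5 with 0, 19 and 0 counts in Naive, Ag and Ag+Costim. For those a lower value in Ag+Costim is tied to the membership rule. The estimates were below 0 for 17 of 17, with a median of -1.03. Trav14d-1 with Trav14n-1, and Trav14d-2 with Trav14n-2, have no unique window, so the 17 are not separate results. All 9 Trav14 copies had FDR values between 0.0807 and 0.0844, from -0.87 for Trav14d-1 to -2.46 for Trav14-2. Trbv12-2 was at -2.81 ± 0.90 (FDR 0.0885) and Trbv12-1 at -0.53 ± 0.20 (FDR 0.116). The ranges of 2 members, Trav14-3 and Trav14n-3, did not overlap, both lower in Ag+Costim (2.10% of all genes), and 0 were higher (4.23%). Leaving out Ag 5 gave 11 of 20 members lower, with 15.6% of all genes lower, and leaving out Ag 2 gave 7 of 19, with 9.47% of all genes lower. The count was 0 when any other single library was left out. Within lane 2, with 5 Ag and 3 Ag+Costim libraries, 0 of 21 members tested and 0 of all 16920 genes were called (4 members at an unadjusted p under 0.05).

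In Ag+Costim vs Naive, 11 of 17 members fell and 0 rose, where 23.6% of all genes fell and 21.0% rose. The median over the 17 was -1.07. Trav15-1-dv6-1 fell by 4.47 on the log2 scale (SE 1.10, FDR 0.00978), Trav14-1 by 2.92 (SE 0.75, FDR 0.0113), Tcrg-V1 by 1.95 (SE 0.48, FDR 0.00967), Trdv2-2 by 1.49 (SE 0.30, FDR 0.00468) and Trdv2-1 by 1.35 (SE 0.33, FDR 0.0092). The other 6 were Trav14 copies, which fell by 1.05 to 1.12. The identical copies Trav14d-1 and Trav14n-1 had -1.11 and -1.10 and are not separate evidence. The same holds for Trav14d-2 and Trav14n-2, which also have 0% of windows unique to either and were both at -1.05. Trav14-2, Trav14n-3, Trbv12-1, Trbv12-2, Trdv4 and B230359F08Rik (RefSeq symbol Trav13-5) did not pass, with Trbv12-2 at 1.23 ± 0.91 (FDR 0.264). Groups did not overlap for 6 members, all lower (22.3% of all genes): Tcrg-V1, Trav14-1, Trav14-3, Trav14d-1, Trav14n-1 and Trav15-1-dv6-1. None were higher without overlap (22.7%). The limit from the filter given above applies to Tcrg-V1, Trav14-1 and Trav15-1-dv6-1. Summed by family, 5 of 8 families fell, where 20.1% of all genes fell: Tcrg-V1, Trav13, Trav14, Trav15 and Trdv2. With the lane as a term, Trdv2-2 was the 1 member of 17 called (-2.05 ± 0.39, FDR 0.0305), where 5.43% of all genes were called. Tcrg-V1 was then at -2.50 ± 0.71 (FDR 0.0527), no smaller than without the term. Within lane 3 alone 14 of 22 members tested were called lower, against 20.6% of all genes.

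**Figure D4:**
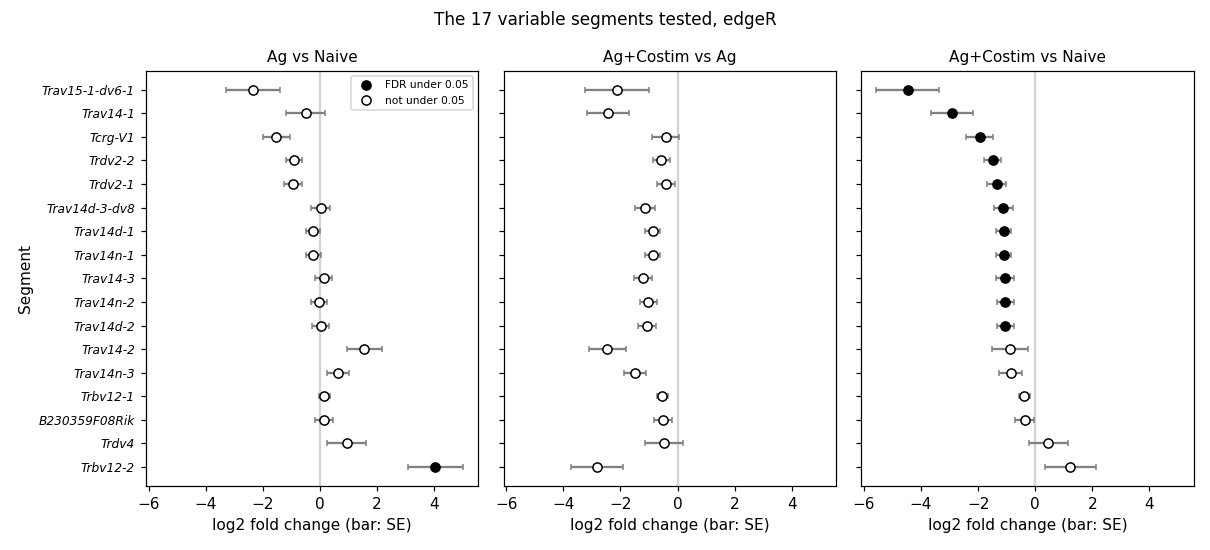
Log2 fold change with its SE for the 17 segments tested in each comparison, with filled points at an edgeR FDR under 0.05. The 11 filled points in Ag+Costim vs Naive all lie left of 0, and the single filled point in Ag vs Naive is Trbv12-2 at 4.05.

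The alpha chain levels stood beside their constant gene as follows. Per kilobase, Trav14 relative to Trac was 0.633 in Naive (median; 0.407 to 0.701), 0.373 in Ag (0.337 to 0.624) and 0.292 in Ag+Costim (0.254 to 0.337). The Ag+Costim libraries all lay below the Naive libraries. Trac, the alpha constant gene, was not called in any comparison (-0.09 ± 0.14, FDR 0.6, in Ag+Costim vs Naive), nor was Trbc2 (-0.31 ± 0.19, FDR 0.181). Of the 4 CD3 chains, which carry the receptor's signal, 2 fell in Ag+Costim vs Naive, Cd3g (-0.61 ± 0.21, FDR 0.0311) and Cd247 (-0.60 ± 0.14, FDR 0.00785), and both coreceptor genes Cd8a and Cd8b1 fell (-0.54, FDR 0.032, and -0.72, FDR 0.0061). Of 8 constant genes 7 were tested, and 2 fell in Ag and 3 in Ag+Costim relative to Naive. Of the 3 recombination genes, 2 were tested. Dntt, which adds bases at the junctions, fell in Ag+Costim vs Naive (FDR 0.00792), with 0.465 to 4.86 CPM in Naive and 0 in all Ag+Costim libraries. Rag1, which cuts at the segment ends, was not called (-0.98 ± 0.93, FDR 0.385). Ptcra, the pre-receptor alpha chain, did not pass the filter. None of these partner genes was called in Ag+Costim vs Ag by edgeR.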

How the data were processed

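RNA was made into libraries with SMART-Seq v4 and Nextera XT, which do not mark strand, and, per the labels and the sequencing core's table, read as single reads of 50 bases. The study's methods give a longer read for transcriptomics, and the shares of unique windows hold for 50 bases only. Per the labels, the authors used HISAT2 2.1.0, SAMtools 1.9, StringTie 2.1.0, R 4.0.5 and DESeq2 1.30.1 with mm10, while the sequencing core's table names an older mouse build. The annotation release is not given in the sources used here. The deposited gene table holds StringTie's estimated counts as whole numbers, not normalised. Estimated counts of near-identical V copies depend on how StringTie divided shared reads. The sequencing core's deposited table gives the count of sequenced reads and percent values for aligned reads and RiP (not spelled out), which were 55.4 to 63.5 percent and 15.4 to 78.3 percent.

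Of 81881 entries 55536 matched GENCODE M21 by identifier. The 26248 entries named by a number, with 0.0818% of counts, and 97 entries with 0 counts were left out. Library pairs within a group had a chi-square per degree of freedom of at least 5.62, so none were merged. The study describes the libraries of a group as individual biological replicates.

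Groups came from the titles. All 15 libraries were fitted in 1 edgeR 4.0.16 quasi-likelihood model (filterByExpr, TMM, robust), two-sided, with Benjamini-Hochberg FDR under 0.05 over 17366 genes. DESeq2 1.42.0, other scalings and filters, lane and replicate terms, counts summed by family and each library left out in turn were alternatives, and fits within lanes were added after seeing the data. Simulated data with 100 genes changed by 1.5 log2 units in Ag vs Naive gave 65% recovered among 17366 genes, and 100% at 3 log2 units, with 4 false calls. Windows of 50 bases were compared with all annotated transcripts.

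Named segments were the 6 highest per kilobase in each chain, the called members (at most 5 a direction and comparison) and in each chain the segment outside the OT-I families with the highest share of its chain in any library with at least 50 counts of that chain, with a fixed list of receptor partner genes. Others were named after their values were seen, which is said where it applies to a single segment. Members and lists were chosen with earlier results of these data known. Fits without libraries picked for their V segment counts were run once, discarded and used for nothing.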

Additional observations from a re-analysis of the deposited data

Results flagged for a closer look

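In 12 of 84 groups of 5 libraries 1 library stood apart from the rest by Dixon's 95% criterion (0.71). For normally distributed values chance alone flags about 1 in 20 groups. A group with counts in 1 library and 0 in the rest is always flagged, so the chance rate here is not known. Most of the flagged values rest on a few counts. The share of Trav counts outside Trav14 in Ag 3 was 27.2%, with 2.09% to 7.16% in the other Ag libraries. Trav6-5 was at 4.79 CPM in Ag 3, against 0 to 1.03 in the rest of its group, and at 0.789 CPM in Naive 2, against 0.199 to 0.336. Tcrg-V3 was at 2.18 CPM in Ag 3 and at 0 in the other Ag libraries. Trav15-1-dv6-1 and Tcrg-V5 were each at 0.244 CPM in Ag+Costim 2, with at most 0.0703 in the other Ag+Costim libraries. Trbv13-2 was at 0.633 CPM in Ag+Costim 3, against 0.398 to 0.454. Trbv13-3 was at 0.315 CPM in Naive 2 and 0.281 CPM in Ag+Costim 3, and at 0 in the rest of both groups. Tcrg-V6 was at 0.344 CPM in Ag 1 and 0.133 CPM in Ag+Costim 1, and at 0 in the rest of both groups. Trdv5 was at 0 CPM in Naive 5 and at 0.556 to 0.631 in the other Naive libraries.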

How the results depend on the processing

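In Ag vs Naive, where 1 member was called, DESeq2 called 4, a filter at 10 counts in total gave 2, and the count was 0 with the 10 libraries compared alone, with a lane term or with counts summed by family. Of all genes, 6.71% were called in the main fit, 5.35% by DESeq2 and 1.09% with that filter. The share was 0.0358% with the 10 libraries alone, 0% with the lane term and 5.36% by family. The member count ran from 0 (without Naive 1, 3 or 4) to 6 (without Naive 5) when single libraries were left out. The share of all genes called was then 1.42% to 1.52% and 21.5%. In Ag+Costim vs Ag, where 0 were called, DESeq2 called 14 (11.4% of its genes), with the limits given above. Leaving out single libraries gave 0 to 11. The highest count came without Ag 5, where 19.7% of all genes were called. In Ag+Costim vs Naive, where 11 were called (44.7% of all genes), the lane term gave 1 (5.43%) and families gave 5 (45.6%). Leaving out single libraries gave 8 (without Ag+Costim 4, 29.6% of all genes) to 13 (without Ag 1 or Ag 5, 45.5% and 51.1%). The causes were not tested, except that summing by family leaves 8 units to test. The share of Trbv counts outside Trbv12 in Naive was 0.192% with pseudogenes counted, against 0.085%, while the Ag and Ag+Costim means moved by less than their SD. Of 474 alternative values of 20 fold changes, 428 kept their direction and side of the threshold, 34 lost the call, 12 gained it and 0 changed direction.

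Replicate numbers did not pair the samples: the correlation of same-numbered libraries ran from -0.344 to 0.575, with 6 of 15 above 0.1. With the replicate block, 11 members were called in Ag+Costim vs Naive (45.1% of all genes) and 0 in each of the other comparisons. Of all genes, 9.56% were then called in Ag vs Naive and 0% in Ag+Costim vs Ag. Depth limits segments of a few counts, for which a 0 allows up to 3 counts.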
